A study of Mus musculus with 12 samples.

Results

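The response of mouse embryonic stem cells to 2i was compared between wild-type and Nat1-null cells, as the difference of differences (2i+LIF minus LIF in Nat1-null cells) minus (2i+LIF minus LIF in wild-type cells), called the interaction below. All 12 arrays of the study entered it, grouped by their titles, and all genes that passed the signal filter were tested, 24457 in number, 15422 of them with a gene symbol. A positive interaction means that 2i raised the gene more, or lowered it less, in Nat1-null cells than in wild-type cells. Each genotype was grown in LIF alone or in 2i+LIF, which makes 4 groups of 3 single-colour (Cy3) Agilent arrays of total RNA. LIF was present in all 4 groups, and all cells grew on gelatin-coated plates. The labels give neither the inhibitors, their dose and duration, nor the number of clones behind the Nat1-null cells, and they do not say whether replicates were separate cultures, so the spread behind the p-values may be technical.

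LIF is a cytokine that acts through STAT3 to keep mouse embryonic stem cells undifferentiated. In common use, 2i combines a compound against MEK (the kinase upstream of ERK) with another against GSK3 (the kinase that marks beta-catenin for destruction). MEK inhibition silences ERK target genes and the exit from the naive state, and GSK3 inhibition releases genes held down by TCF7L1 and turns on Wnt targets, so that a culture in 2i moves towards the naive ground state. Nat1 is here the older name of Eif4g2 (also DAP5), a translation initiation factor of the eIF4G family that supports translation of a subset of mRNAs.

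Levels are log2 signals relative to the 75th percentile of each array, so a level of 0 is that percentile and a step of 1 is a doubling. Eif4g2 read 4.55, 4.49 and 4.44 in wild-type LIF, 4.23, 4.09 and 4.29 after addition of 2i, 1.33, 1.26 and 1.23 in Nat1-null LIF and 1.22, 1.26 and 1.42 in Nat1-null 2i+LIF. The Nat1-null arrays thus lay below every wild-type array in either medium. The stem cell markers Pou5f1, Sox2, Nanog, Sall4 and Utf1 were well above background on all 12 arrays. Replicate arrays correlated at 0.9876 or more, and the SD over genes of the difference between replicates was 0.521 and 0.517 in the Nat1-null groups against 0.26 and 0.304 in the wild-type groups. Wild-type LIF lay on slide 1, wild-type 2i+LIF on slide 2 and both Nat1-null groups on slide 3, so the medium in wild-type cells, the genotype and the interaction cannot be told apart from the slide. On slide 3, Nat1-null LIF replicates 1 and 2 lay in row 1 and the 4 other Nat1-null arrays in row 2. Negative control spots, in linear scanner units after background subtraction and not in log2, averaged between -16.4 and -10.2 in row 2. On the 8 other arrays they averaged between -9.89 and -6.45. Each count and named value was also computed without the row 1 arrays of slide 3 (called row 2 alone below). That setting keeps all wild-type arrays but only 1 Nat1-null LIF array, replicate 3, whose spread is assumed to be that of the other groups.

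The 2i response differed between genotypes in 12149 of 24457 genes, or 49.7% of those tested (limma, Benjamini-Hochberg adjusted p below 0.05). The interaction was positive in 5614 (23%) and negative in 6535 (26.7%). Without scaling between arrays, the median interaction of all genes moved from -0.04 to 0.351 and the split became 10504 positive against 2786 negative, so small differences have no firm sign and larger ones are the subject here. In 4969 genes (20.3%) the difference was called and at least 2-fold, that is, at least 1 on the log2 scale. Just inside that threshold, 478 genes lay between 1 and 1.1, and just outside it 609 called genes lay between 0.9 and 1. Within wild-type cells 2i changed 15196 genes (62.1%), with 35% raised and 27.1% lowered, and within Nat1-null cells 8854 (36.2%), with 20% raised and 16.2% lowered. The counts of gene list members below stand against these shares of all genes tested. At 2-fold or more it raised 1759 and lowered 2929 genes in wild-type cells, and raised 880 and lowered 1063 in the null.

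The 4969 genes were sorted by how each genotype responded. The response was called in wild-type cells and not in Nat1-null cells for 2325 genes (lost). It was called in both with opposite sign for 1561 (reversed), called with the same sign and smaller in Nat1-null cells for 340 (reduced), called with the same sign and larger for 124 (enhanced), and called in Nat1-null cells alone for 524 (gained). The remaining 95 were called in neither genotype. Lost and reversed responses together made up most of the genotype dependence. The counts moved with the treatment of background: with normexp background correction 3246 genes were called by at least 2-fold and 1176 were lost, and among probes well above background on all 12 arrays 2997 and 965. A lost response is the absence of a call, not proof of no response: of the 2325 lost genes, 1711 had a Nat1-null difference below 0.5 in size. At the other end, 2403 genes were called in both genotypes with the same sign and had no called interaction, 1489 raised and 914 lowered, and 330 of these moved by at least 2-fold in each genotype.

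**Figure D1:**
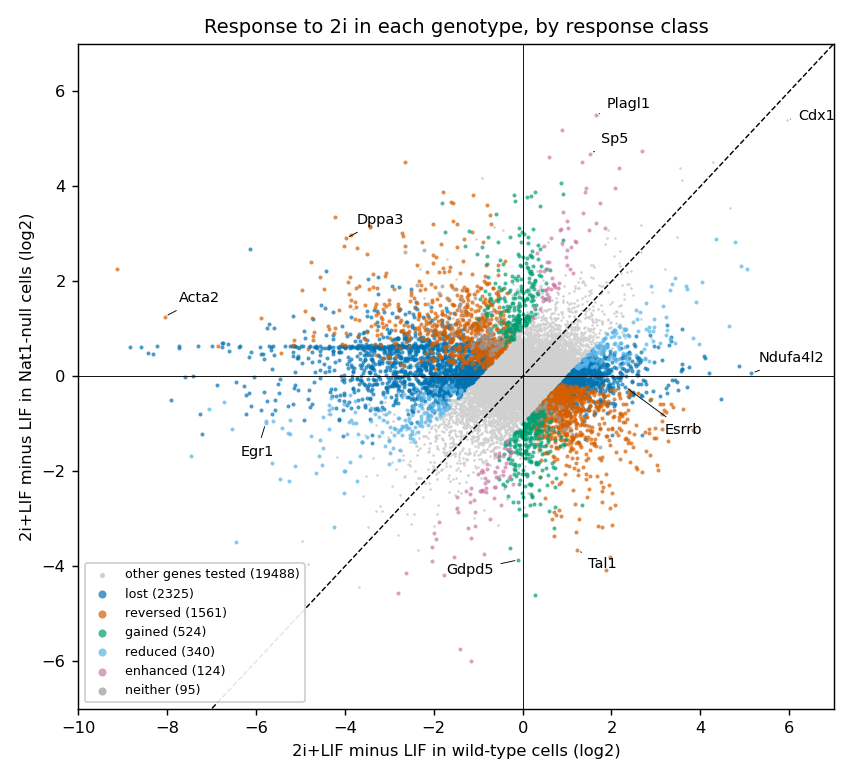
Each point is a gene, placed by its difference 2i+LIF minus LIF in wild-type cells (horizontal, log2) and in Nat1-null cells (vertical, log2), with genes whose interaction was called and at least 2-fold coloured by response class. The dashed line marks equal responses. Lost genes lie along the horizontal axis, reversed genes in the upper left and lower right, and Cdx1 near the dashed line. The row of lost genes at a constant height slightly above 0 holds mainly genes at background in both Nat1-null groups.

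Lost and reversed genes mostly started, in Nat1-null LIF, on the 2i side of the wild-type range. In 2097 of the 2325 lost genes (90.2%) the mean of Nat1-null LIF was nearer to that of wild-type 2i+LIF than to that of wild-type LIF, and the same held for 1424 of the 1561 reversed genes (91.2%). These shares compare group means that also define the classes, so they are in part a product of the sorting. The same share was 80% of reduced, 65.3% of gained and 13.7% of enhanced genes, and is not given here for all genes tested. The lost genes that 2i lowered in wild-type cells had a median level of -2.19 in wild-type LIF, the group on slide 1, and of -4.64 with 2i. Nat1-null cells had medians of -5.24 without and -5.03 with 2i. Nat1-null LIF lay beyond wild-type 2i+LIF in 1195 of the reversed genes. Both Nat1-null means lay nearer wild-type LIF than wild-type 2i+LIF, though not always at the wild-type LIF level, for 203 of 2665 lost or reduced genes (7.62%). Of the 2325 lost genes, 649 (27.9%) were not well above background on any array of either Nat1-null group, 634 of them genes that 2i lowered in wild-type cells. For such genes the Nat1-null difference is between background values, with a median of 0.454, and they say only that the gene was not measurable in Nat1-null cells.

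**Figure D2:**
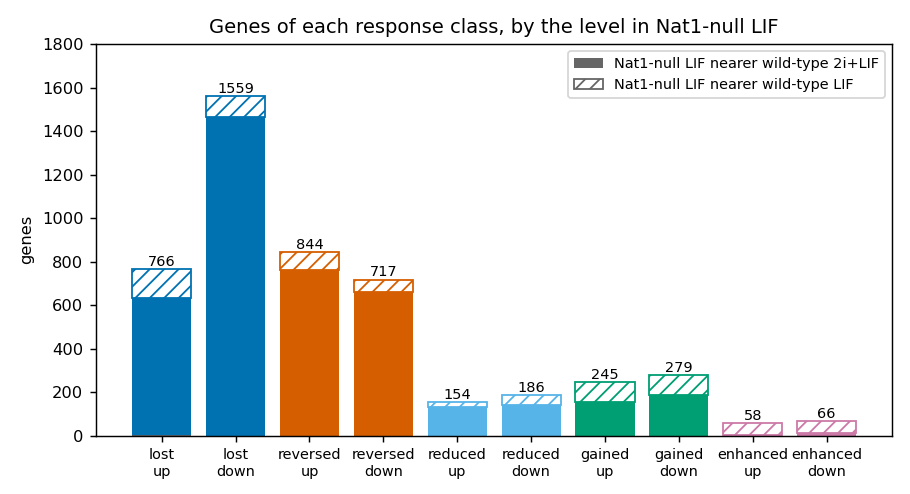
Bars give the number of genes in each response class by direction (wild-type direction, and for gained genes the Nat1-null direction). The filled part counts genes whose Nat1-null LIF mean lay nearer wild-type 2i+LIF and the hatched part those nearer wild-type LIF; the filled part makes up most of the lost and reversed bars and little of the enhanced ones.

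Genes that 2i lowered in wild-type cells and raised in Nat1-null cells held the largest interactions among genes well above background on all 12 arrays. Acta2, smooth muscle actin, read 6.33, 6.22 and 6.35 in wild-type LIF and -1.84, -1.55 and -1.87 in wild-type 2i+LIF. Nat1-null cells read -3.03, -3.67 and -3.28 in LIF and -1.84, -2.57 and -1.80 in 2i+LIF. Wild-type LIF stood far above the 9 other arrays, and the media did not overlap in either genotype. The fall was 266-fold in wild-type cells and the rise 2.39-fold in Nat1-null cells, an interaction of 9.31 ± 0.31 (SE, n = 3 arrays in each group, limma adjusted p = 3.8e-08). Myl9, a myosin light chain of smooth muscle, led the lost genes that fell, with 5.38, 5.27 and 5.32 in wild-type LIF and -0.85, -0.68 and -0.96 in wild-type 2i+LIF. Its Nat1-null values overlapped between media, at -0.00, -0.72 and -0.03 in LIF and -0.48, -1.30 and -0.03 in 2i+LIF, and the interaction was 5.80 ± 0.41 (limma adjusted p = 3.1e-06).

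The RefSeq promoters of these contractile genes (the 250 bases before the start, GRCm38.p6, gene strand) are shown because the genes moved together in wild-type cells and the CArG box, the binding motif of serum response factor, is known for genes of this kind. Acta2 lies at chr19:34255374-34255623 (minus strand) and Myl9 at chr2:156775214-156775463 (plus strand), with motif matches on either strand in capitals.
Acta2: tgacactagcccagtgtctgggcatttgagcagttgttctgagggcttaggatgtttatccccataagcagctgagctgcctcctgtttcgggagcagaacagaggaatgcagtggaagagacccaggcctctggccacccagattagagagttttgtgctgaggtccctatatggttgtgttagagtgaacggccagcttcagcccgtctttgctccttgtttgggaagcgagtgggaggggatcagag
Myl9: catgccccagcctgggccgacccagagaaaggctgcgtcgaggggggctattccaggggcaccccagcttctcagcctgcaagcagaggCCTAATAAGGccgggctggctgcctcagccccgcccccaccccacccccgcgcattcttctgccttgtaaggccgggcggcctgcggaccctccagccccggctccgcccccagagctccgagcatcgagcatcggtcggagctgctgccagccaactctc
Myl9 held 1 CArG box of the exact form searched, CCWWWWWWGG (W is A or T), from 161 to 152 bases before the start. Acta2 held no exact match in this window, but ccctatatgg and ccttgtttgg in it each differ from that form by 1 base. Forms with a mismatch were not searched, so the lack of a match does not show the lack of a CArG element. The exact form was present in 1.47% of the 32851 promoters of the table. The CArG box was not among the motifs first planned and was added with these genes in view. Neither window held TCAAAG (the TCF/LEF core, in 13.8% of promoters), TTCNNNGAA (STAT, 7.02%) or CCGGAAG (ETS, 6.91%), each searched on both strands. The same 4 searches found no match before Grin2c and Ly6c1, which led the reversed genes raised in wild-type cells and the gained genes raised in Nat1-null cells.

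Contractile genes formed the list with the largest median interaction of the 28. Of 17 contractile genes tested, 16 had a positive and 1 a negative called interaction, with a median of 3.8 against -0.04 over all genes tested. Their median response was -3.08 in wild-type cells and 0.46 in Nat1-null cells. Cnn1 (calponin) fell by 7.05 in wild-type cells and by 0.69 in Nat1-null cells, a reduced response. Of 15 fibroblast genes tested, 11 were positive and 1 negative, with a median of 2.25 that became 0.495 with probes well above background on all 12 arrays alone. Col1a2, a chain of type I collagen, fell by 7.61 in wild-type cells and had a Nat1-null difference near 0, with an interaction of 7.60 ± 0.15 (limma adjusted p = 7e-09). In Nat1-null 2i+LIF it was well above background on only 2 of the 3 arrays. Its Nat1-null difference is thus between values near background. Acta1, Acta2, Actc1 and Actg2 are close relatives whose probes may share signal, so their separate values are uncertain.

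These lists also mark other cell types that a stem cell culture can hold, and in bulk RNA fewer cells of a type and less RNA per cell cannot be told apart. The summed linear level of the 17 contractile genes ranged from 602 to 629 in wild-type LIF and from 164 to 197 over the 9 other arrays. For the 15 fibroblast genes the sum was 186 to 200 in wild-type LIF, 160 to 170 in wild-type 2i+LIF, 113 to 133 in Nat1-null LIF and 185 to 196 in Nat1-null 2i+LIF, with 0, 3, 4 and 4 genes not well above background on any array of the group. This sum is weighted to the highest members and does not follow each gene. Col1a2 had means of 5.44, -2.17, -4.05 and -4.05 in that order of groups. In wild-type cells 11 of the genes fell and 2 rose, and in Nat1-null cells 2 fell and 5 rose. Fn1 rose by 1.17 in wild-type and 0.69 in Nat1-null cells, and Pdgfrb by 2.05 and 2.54. The part of such cells in the interaction was not tested.

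Trophoblast and simple epithelial genes with a called interaction all had a positive one. Krt18, a keratin of simple epithelia, read 7.24, 7.17 and 7.38 in wild-type LIF, 1.31, 1.36 and 1.46 in wild-type 2i+LIF, 1.84, 2.25 and 1.93 in Nat1-null LIF and 3.18, 3.25 and 3.29 in Nat1-null 2i+LIF. Its groups overlapped in neither genotype, with a 59.2-fold fall in wild-type cells, a 2.35-fold rise in Nat1-null cells and an interaction of 7.12 ± 0.15 (limma adjusted p = 7e-09). Gata3, a trophoblast transcription factor, fell by 4.98 in wild-type cells and rose by 1.82 in Nat1-null cells. Of 15 trophoblast genes tested, 10 had a positive and none a negative called interaction (median 1.5), and 6 were reversed. Of 17 simple epithelial genes, 14 were positive and none negative (median 1.34), among them Krt8, Krt19 and Krt7, all reversed. The summed trophoblast list stood at 196 to 221 in wild-type LIF, 28.9 to 31.8 in wild-type 2i+LIF, 15.3 to 20 in Nat1-null LIF and 42.6 to 44.8 in Nat1-null 2i+LIF. That sum is linear, so high members such as Krt18 weigh most in it. Krt7, Krt8, Krt18 and Krt19 are on both lists. In wild-type cells 4 trophoblast genes rose and 9 fell, and in Nat1-null cells 11 rose and none fell. Eomes rose by 1.77 in wild-type and 1.90 in Nat1-null cells, with no called interaction. Cdx2, Elf5 and Tpbpa were not tested.

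Genes of early embryos and the germline included reversals in which Nat1-null cells in 2i reached or passed the wild-type 2i level. Dppa3 (Stella), a maternal factor that protects DNA methylation in the zygote, read 3.76, 3.78 and 3.79 in wild-type LIF and -0.22, -0.18 and -0.21 in wild-type 2i+LIF. Nat1-null cells read -2.83, -2.89 and -3.01 in LIF and -0.10, 0.27 and -0.18 in 2i+LIF. The genotypes overlapped in 2i+LIF and not in LIF. It fell 15.7-fold in wild-type cells and rose 7.5-fold in Nat1-null cells (interaction 6.88 ± 0.14, limma adjusted p = 7e-09). Rhox6, an X-linked homeobox gene of the germline and placenta, read 3.87, 3.88 and 4.02, then -0.51, -0.20 and -0.18 in wild-type cells, and -1.67, -0.78 and -1.33, then 1.82, 2.29 and 2.19 in Nat1-null cells (LIF, then 2i+LIF). Its Nat1-null 2i+LIF arrays lay above every wild-type 2i+LIF array, and the interaction was 7.58 ± 0.30 (limma adjusted p = 9.9e-08). Rhox9, its close relative, gave 6.85 ± 0.27, and the probes may not separate the pair.

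Of 16 genes known from the 2-cell embryo, 13 had a positive and 2 a negative called interaction, with a median of 2.68, and 9 were reversed. Their median response was -1.77 in wild-type cells and 0.83 in Nat1-null cells. Zscan4c, which marks a transient 2-cell-like state in stem cell cultures, fell by 1.34 in wild-type cells and rose by 0.85 in Nat1-null cells, while its level stayed lower in Nat1-null cells, with means of 4.06 and 2.72 in wild-type LIF and 2i+LIF and of -1.91 and -1.06 in Nat1-null LIF and 2i+LIF. Pramel6 and Pramel7, oocyte and blastocyst genes, were not well above background on any array of Nat1-null LIF but were on all 3 of Nat1-null 2i+LIF. Their rises were thus at least 8.4-fold and 3.16-fold, taken over the mean of, on each LIF array, the higher of the lowest signal well above background and the gene's own. The Zscan4, Tcstv and Pramel genes belong to families of near-identical copies that the probes may not separate. Among 23 germline genes the calls ran both ways, with 8 positive and 9 negative and a median of 0.23.

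**Figure D3:**
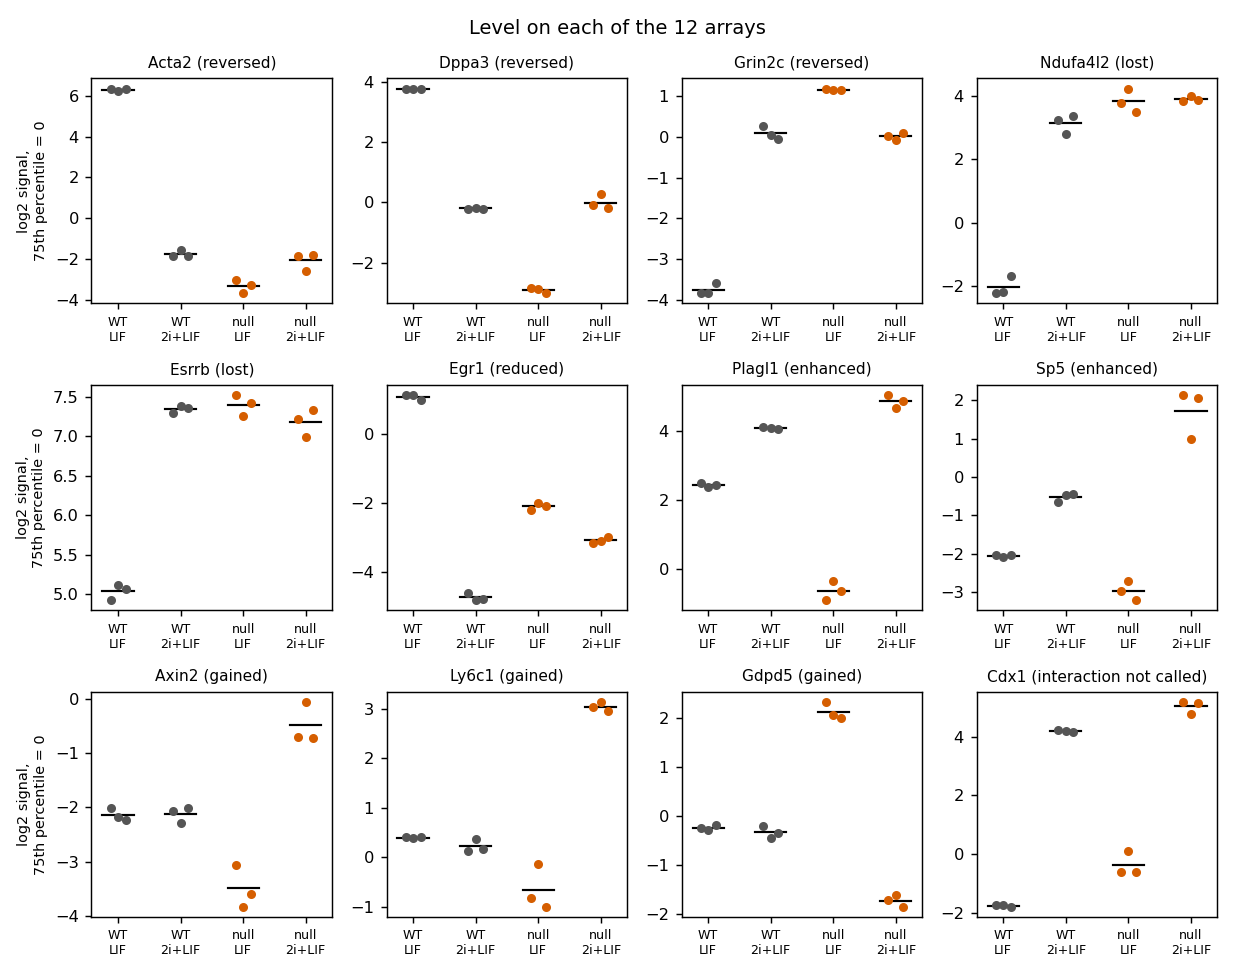
Each panel gives the level of a gene on the 12 arrays (log2 signal, 75th percentile of the array = 0), with grey points for wild-type and orange points for Nat1-null arrays and a line at each group mean. Acta2, Dppa3 and Grin2c move in opposite directions in the genotypes, Ndufa4l2 and Esrrb have a called response in wild-type cells only, Axin2, Ly6c1 and Gdpd5 in Nat1-null cells only, and Cdx1 in both. Vertical scales differ between panels.

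The opposite reversal, a rise in wild-type cells and a fall in Nat1-null cells, was found for 844 genes. Grin2c, an NMDA receptor subunit, had the largest interaction of those well above background on all arrays. It read -3.83, -3.82 and -3.59 in wild-type LIF, 0.26, 0.05 and -0.06 in wild-type 2i+LIF, 1.18, 1.14 and 1.14 in Nat1-null LIF and 0.03, -0.08 and 0.09 in Nat1-null 2i+LIF. The 2i+LIF arrays of the genotypes overlapped, and the LIF arrays lay on either side of them (interaction -4.97 ± 0.13, limma adjusted p = 1.7e-08). Tal1, a transcription factor of blood and endothelial progenitors, differed in kind, since its fall was the larger movement. It read -3.45, -3.67 and -3.41, then -2.24, -2.09 and -2.48 in wild-type cells, and 1.11, 0.95 and 0.99, then -2.48, -2.68 and -2.77 in Nat1-null cells (LIF, then 2i+LIF). Inhbb, the beta B subunit of activins, rose by 2.96 in wild-type cells and fell by 1.29 in Nat1-null cells. Reversals of size in both genotypes were fewer: 1036 of the 1561 genes moved by at least 0.5 in each genotype, 361 by at least 1 (138 raised and 223 lowered in wild-type cells) and 30 by at least 2.

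Of 20 naive pluripotency genes, 15 rose and 2 fell in wild-type cells, and 7 rose and 4 fell in Nat1-null cells. Of the same 20 genes, 8 were lost, 3 reversed, 3 reduced and 1 enhanced, and 15 had a negative and 3 a positive called interaction, with a median of -1.42 against -0.04 over all genes. The median response was 1.66 in wild-type cells and 0.06 in Nat1-null cells, and the median level went from 2.91 to 4.88 in the former and from 4.77 to 4.96 in the latter. Esrrb, a nuclear receptor of the naive network, read 4.93, 5.12 and 5.08 in wild-type LIF and 7.29, 7.38 and 7.37 in wild-type 2i+LIF. Its Nat1-null values overlapped between media, at 7.52, 7.25 and 7.42 in LIF and 7.22, 7.0 and 7.33 in 2i+LIF. The 4.94-fold rise of wild-type cells thus had no called counterpart (interaction -2.52 ± 0.14, limma adjusted p = 6.4e-07). Nanog (interaction -1.83), Klf4 (-2.14), Tbx3 (-2.49) and the octamer factor Pou5f1 (-1.43) were also lost by the calls. For Nanog the Nat1-null media did not overlap, and its rise of 0.16 there narrowly missed the call (limma adjusted p = 0.054).

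Tfcp2l1, a transcription factor downstream of both LIF and 2i, kept part of its response. It read 1.34, 1.44 and 1.32, then 5.28, 5.28 and 5.24 in wild-type cells, and 4.36, 4.46 and 4.43, then 6.12, 5.80 and 6.03 in Nat1-null cells (LIF, then 2i+LIF). Neither pair of groups overlapped, with rises of 14.9-fold and 2.96-fold and an interaction of -2.33 ± 0.11 (limma adjusted p = 2.9e-07). Sox2 and Prdm14 fell slightly in Nat1-null cells, by 0.25 and 0.28, after rises of 0.82 and 1.98 in wild-type cells, and both count as reversed by the rule. The positive interactions in the naive list were those of Dppa3, given above, of Spic (1.74), an ETS-family transcription factor, and of Pecam1 (0.43), an adhesion molecule. Of 19 components and targets of the LIF and STAT3 pathway, among them Lifr, Il6st, Jak1 and Stat3, 14 were negative and 1 positive (median -0.88). Socs3, the feedback inhibitor of this pathway, rose by 1.68 in wild-type cells and differed by -0.13 in Nat1-null cells.

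Formative and primed genes, which mark the exit from the naive state, had mostly positive calls. Of 18 tested, 14 fell and none rose in wild-type cells, and 8 fell and 5 rose in Nat1-null cells. Of these 18 genes, 11 had a positive and 1 a negative called interaction (median 1.49), and their median response was -2.01 in wild-type cells and -0.16 in Nat1-null cells. Fgf5, a marker of the primed epiblast, was not well above background on any wild-type 2i+LIF array and rose by 1.38 in Nat1-null cells. Pou3f1 (Oct6) fell by 4.35 in wild-type cells and by 0.71 in Nat1-null cells. Otx2 fell by 1.73 and by 0.42. Dnmt3b, a de novo DNA methyltransferase, read 5.79, 5.75 and 5.79, then 3.04, 3.42 and 3.19 in wild-type cells, and 3.69, 3.28 and 3.73, then 4.21, 3.99 and 4.40 in Nat1-null cells (LIF, then 2i+LIF). The media did not overlap in either genotype, and the direction turned (interaction 3.19 ± 0.20, limma adjusted p = 1.6e-06). Dnmt3l, its catalytically inactive partner, kept the direction of its fall, 4.58 in wild-type and 1.68 in Nat1-null cells. The demethylation enzymes Tet1 and Tet2 rose in wild-type cells, by 1.02 and 1.52, and fell in Nat1-null cells, by 0.50 and 0.48.

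**Figure D4:**
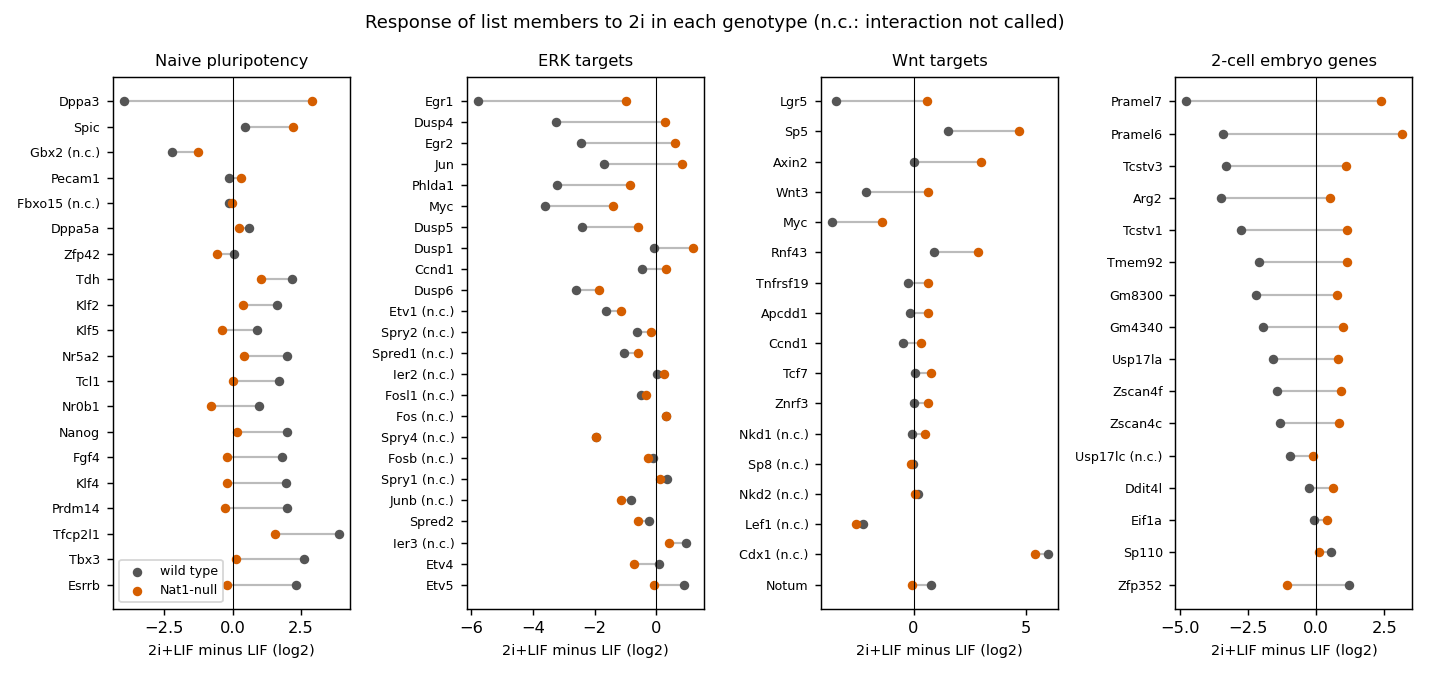
Each row is a gene of the naive pluripotency, ERK target, Wnt target or 2-cell embryo list, with its 2i+LIF minus LIF difference (log2) in wild-type cells (grey) and in Nat1-null cells (orange). Most naive genes have the orange point near 0 and the grey point to its right, most 2-cell genes have the points on opposite sides of 0, and Spry4 and Cdx1 have both points close together.

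Targets of the inhibited kinases did not behave alike. Of 24 ERK target genes tested, 10 had a positive (41.7%) and 3 a negative (12.5%) called interaction, against 23% and 26.7% of all genes. The median was 0.45, and 11 had no called interaction, while 49.7% of all genes had one. Egr1, an immediate early gene, read 1.1, 1.1 and 0.97 in wild-type LIF, -4.59, -4.80 and -4.78 in wild-type 2i+LIF, -2.19, -2.0 and -2.09 in Nat1-null LIF and -3.15, -3.10 and -2.99 in Nat1-null 2i+LIF. No groups overlapped, and the 55.1-fold fall of wild-type cells compared with 1.98-fold in Nat1-null cells (interaction 4.80 ± 0.11, limma adjusted p = 9.5e-09). Egr1 was well above background on only 2 of the 3 wild-type 2i+LIF arrays, so the size of its wild-type fall is uncertain. Over the alternatives its interaction ran from 3.36 to 5.2. Dusp4, an ERK phosphatase, fell by 3.24 in wild-type cells and differed by 0.27 in Nat1-null cells.

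Dusp6 and Spry4, feedback genes of the same pathway, fell in both genotypes. Dusp6, the cytoplasmic ERK phosphatase, read 4.15, 4.18 and 4.22, then 1.39, 1.84 and 1.56 in wild-type cells, and 4.79, 4.43 and 4.82, then 2.95, 2.54 and 3.02 in Nat1-null cells (LIF, then 2i+LIF). It fell 6.01-fold and 3.59-fold, with no overlap between media, and the interaction of 0.75 ± 0.22 (limma adjusted p = 0.018) was under 2-fold and missed the threshold with row 2 alone. Spry4, a feedback inhibitor of receptor tyrosine kinase signalling, read -2.22, -2.35 and -2.80, then -4.67, -4.57 and -4.00 in wild-type cells, and 0.15, -0.74 and 0.14, then -2.05, -2.70 and -1.56 in Nat1-null cells. It fell by 1.96 in each genotype, and the 95% interval of the interaction ran from -1.06 to 1.06, which leaves room for a 2-fold difference either way. Among 26 components of the pathway itself, 4 were positive (15.4%) and 8 negative (30.8%), against 23% and 26.7% of all genes. Their median of -0.07 became 0.325 without scaling between arrays.

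Wnt targets mostly had positive interactions, from genes that rose more in Nat1-null cells and from genes whose wild-type fall was not called there. Of 17 tested, 11 had a positive and 1 a negative called interaction, with a median of 0.77, and 9 rose and 1 fell in Nat1-null cells against 4 and 6 in wild-type cells. Axin2, the feedback inhibitor of beta-catenin, read -2.02, -2.18 and -2.24, then -2.06, -2.30 and -2.01 in wild-type cells, where the media overlapped. It read -3.06, -3.83 and -3.60, then -0.70, -0.07 and -0.72 in Nat1-null cells, where they did not. The rise there was 8.01-fold (interaction 2.98 ± 0.31, limma adjusted p = 3.4e-05), and a second probe gave 1.83. Sp5, a transcription factor induced by Wnt, read -2.03, -2.09 and -2.03, then -0.66, -0.46 and -0.45 in wild-type cells, and -2.97, -2.71 and -3.20, then 2.12, 1.00 and 2.06 in Nat1-null cells. It rose 2.88-fold and 25.8-fold, with no overlap between media in either genotype (interaction 3.16 ± 0.37, limma adjusted p = 7.5e-05). Rnf43, a ubiquitin ligase that removes Wnt receptors and was named here after its values were seen, rose by 0.90 and by 2.88.

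The promoters of these Wnt targets are shown with matches to the TCF/LEF core, TCAAAG or its reverse complement, in capitals. Axin2 lies at chr11:108920099-108920348 (plus strand) and Sp5 at chr2:70474673-70474922 (plus strand), 250 bases before the start in RefSeq, GRCm38.p6. They were chosen after their values were seen.
Axin2: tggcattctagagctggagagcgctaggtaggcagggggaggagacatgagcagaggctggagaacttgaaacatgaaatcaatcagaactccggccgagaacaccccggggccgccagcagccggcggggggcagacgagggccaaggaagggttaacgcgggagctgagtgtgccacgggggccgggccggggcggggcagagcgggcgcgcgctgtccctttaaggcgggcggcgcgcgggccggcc
Sp5: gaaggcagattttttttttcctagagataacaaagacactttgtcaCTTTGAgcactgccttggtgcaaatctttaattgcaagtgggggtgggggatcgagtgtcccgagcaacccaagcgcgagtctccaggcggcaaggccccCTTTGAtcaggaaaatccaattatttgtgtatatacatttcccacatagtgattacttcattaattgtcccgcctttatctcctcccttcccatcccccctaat
Sp5 held 2 matches, beginning 204 and 104 bases before the start, where 13.8% of all promoters held any, and Axin2 held none of the 4 motifs in this window.

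Cdx1, a homeobox gene known to respond to Wnt signals, rose in both genotypes. It read -1.75, -1.73 and -1.79, then 4.23, 4.20 and 4.15 in wild-type cells, and -0.63, 0.11 and -0.60, then 5.18, 4.79 and 5.15 in Nat1-null cells (LIF, then 2i+LIF). The rise was 61.9-fold and 42.5-fold, and the interaction of -0.54 was not called (95% interval -1.12 to 0.03, limma adjusted p = 0.11). Lef1, a partner of beta-catenin, fell by 2.25 and by 2.53, with an interval of the interaction from -1.06 to 0.50, and its 2 probes disagreed in sign. Neither interval shows equal responses. Lgr5 and Wnt3 were above background in wild-type LIF alone, so their interactions rest on the wild-type fall. Myc, a growth regulator also on the ERK list, fell by 3.62 in wild-type cells and differed by -1.39 in Nat1-null cells, where no change was called. Notum, a secreted Wnt inhibitor, had the negative interaction of this list, at -0.86 (limma adjusted p = 0.014).

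Enhanced responses were the fewest of the 5 classes. In 328 of 524 gained genes (62.6%), Nat1-null LIF lay further from the mean of the 2 wild-type groups than Nat1-null 2i+LIF did, and in the rest it did not. Whether it lay outside the wild-type range was not counted. Plagl1, an imprinted zinc finger gene, led the enhanced genes. It read 2.51, 2.38 and 2.44, then 4.12, 4.09 and 4.06 in wild-type cells, and -0.90, -0.35 and -0.66, then 5.05, 4.68 and 4.88 in Nat1-null cells (LIF, then 2i+LIF). The rise was 3.13-fold and 45.4-fold (interaction 3.86 ± 0.19, limma adjusted p = 2.9e-07), and every Nat1-null array lay below wild-type LIF without 2i and above wild-type 2i+LIF with it. The genotypes differed by -3.08 in LIF and by 0.78 in 2i+LIF, both called. Its 4 probes gave between 0.24 and 3.86, with 2 called. Prkca, protein kinase C alpha, led the enhanced falls, by 0.88 in wild-type cells and 3.75 in Nat1-null cells.

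Ly6c1 and Ly6a, neighbouring genes for small surface proteins of the Ly6 family, led the gained rises. Ly6a (Sca-1) read -0.50, -0.56 and -0.49, then -0.40, -0.25 and -0.33 in wild-type cells, and -1.37, -0.74 and -1.56, then 2.54, 2.66 and 2.51 in Nat1-null cells (LIF, then 2i+LIF). Its Nat1-null 2i+LIF arrays stood above all others, a rise of 13.9-fold against 1.14-fold in wild-type cells (interaction 3.60 ± 0.24, limma adjusted p = 2.2e-06). Ly6c1 gave 3.87 ± 0.26, but a second probe gave 0.46 and was not called, and close copies in this family may share signal. Gdpd5, a phosphodiesterase, led the gained falls. It read -0.24, -0.29 and -0.18, then -0.21, -0.44 and -0.35 in wild-type cells, and 2.33, 2.06 and 2.01, then -1.73, -1.62 and -1.85 in Nat1-null cells. The wild-type media overlapped, and the Nat1-null media lay on either side of them (interaction -3.77 ± 0.14, limma adjusted p = 6.9e-08). Ifitm1, an interferon-induced membrane protein, fell by 2.53 in Nat1-null cells alone.

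Of 25 imprinted genes tested, 18 fell and 4 rose in wild-type cells, and 4 fell and 6 rose in Nat1-null cells. Of these 25 genes, 9 were lost and 3 reduced, and 17 had a positive and none a negative called interaction (median 1.81), with median responses of -1.54 in wild-type and 0.02 in Nat1-null cells. H19, a maternally expressed noncoding RNA, fell by 6.16 in wild-type cells and lay low in both Nat1-null groups, with means of 3.76, -2.40, -4.06 and -3.65 in wild-type LIF, wild-type 2i+LIF, Nat1-null LIF and Nat1-null 2i+LIF. Cdkn1c, a growth-limiting cyclin-dependent kinase inhibitor, fell by 3.84 and differed by 0.02. Of 33 Hox genes tested, 15 were positive and 8 negative (45.5% and 24.2%, against 23% and 26.7% of all genes). In wild-type cells 14 rose and 13 fell, and in Nat1-null cells 16 rose and 1 fell.

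Of 22 glycolytic genes, 21 rose and none fell in wild-type cells, and 13 rose and 1 fell in Nat1-null cells. In this list 17 genes had a negative called interaction against 1 positive, with a median of -0.90. Aldoc (aldolase C) rose by 3.23 and 0.86, and Pfkp (phosphofructokinase) rose by 1.69 in wild-type cells and differed by 0.04 in Nat1-null cells. Of 19 hypoxia genes, 10 were negative and 4 positive. Ndufa4l2, a hypoxia-induced mitochondrial protein, had the largest lost rise of all bright genes, at -2.21, -2.17 and -1.69 in wild-type LIF, 3.23, 2.80 and 3.35 in wild-type 2i+LIF, 3.77, 4.22 and 3.50 in Nat1-null LIF and 3.84, 3.97 and 3.87 in Nat1-null 2i+LIF. Wild-type LIF stood alone below the other 3 groups, and the Nat1-null media overlapped (interaction -5.09 ± 0.30, limma adjusted p = 8.8e-07). Of 24 cholesterol synthesis genes, 16 rose in wild-type cells (66.7%, against 35% of all genes), and 15 rose and 1 fell in Nat1-null cells (62.5% raised, against 20%), with 10 negative and 3 positive called interactions and a median of -0.24, or 0.159 without scaling between arrays. Of 22 p53 targets, 13 were positive and 6 negative, and 8 were reversed. Of these 8, Fas, Phlda3, Plk2 and Btg2 were among those that fell in wild-type and rose in Nat1-null cells. Sesn1 and Gdf15 did the opposite.

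Of 23 translation initiation genes, 10 had a positive and 2 a negative called interaction, mostly small, with a median of 0.22. Eif4a2, an RNA helicase of the cap-binding complex, was the exception in size, with a rise of 1.39 in wild-type cells and a difference of -0.06 in Nat1-null cells. Eif4g2 itself had an interaction of 0.31 ± 0.10 (limma adjusted p = 0.028), a call that was lost without the signal filter, with row 2 alone, and on leaving out any of 5 arrays (replicates 1 and 2 of wild-type LIF, replicate 2 of wild-type 2i+LIF and replicate 3 of each Nat1-null group). Over these and the other alternatives the value ran from 0.252 to 0.707 and the adjusted p reached 0.066.

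**Figure D5:**
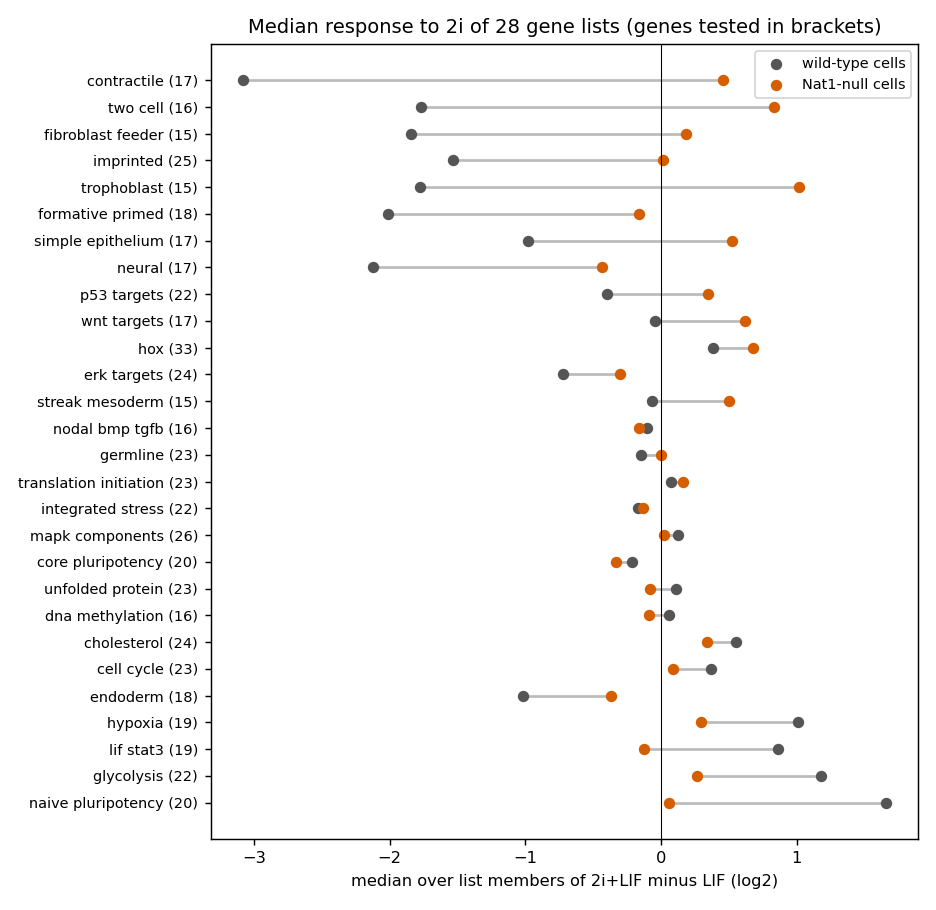
Each row is a gene list, with the median over its tested members of 2i+LIF minus LIF (log2) in wild-type cells (grey) and in Nat1-null cells (orange), ordered by the median interaction. Contractile genes are at the top, with medians of -3.08 and 0.46, and naive pluripotency genes at the bottom, with 1.66 and 0.06. The lists were compared with all genes by their medians only.

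Among the 203 genes with both Nat1-null means nearer wild-type LIF, 98 with a symbol were well above background on all arrays, 38 raised and 60 lowered in wild-type cells. The following were named after their values were seen. Itga3, an integrin subunit that binds laminin, read 0.97, 1.01 and 1.02, then -2.69, -3.06 and -2.68 in wild-type cells, and -0.13, -0.54 and -0.38, then -0.59, -0.71 and -0.45 in Nat1-null cells (LIF, then 2i+LIF). All 6 Nat1-null arrays lay between the wild-type groups and nearer wild-type LIF (interaction 3.58 ± 0.18, limma adjusted p = 3.8e-07). Itga7, another laminin-binding integrin, stood likewise, with an interaction of 3.00. Id3, an inhibitor of basic helix-loop-helix factors, had an interaction of 3.21, but replicate 2 of each Nat1-null group, at -1.68 and -1.02, lay nearer the wild-type 2i+LIF mean of -2.10 than that of 0.80 in wild-type LIF. Dmbx1, a homeobox gene, rose by 2.20 in wild-type cells and differed by -0.08 in Nat1-null cells.

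The other lists held calls in both directions, to be read against 23% positive and 26.7% negative over all genes tested. Of 22 integrated stress response genes 6 were positive (27.3%) and 5 negative (22.7%), near those shares. Of 20 core pluripotency genes 2 were positive (10%) and 7 negative (35%), and of 23 unfolded protein response genes 2 (8.7%) and 9 (39.1%). Of 16 DNA methylation genes 3 were positive (18.8%) and 8 negative (50%), of 18 endoderm genes 3 (16.7%) and 6 (33.3%), and of 23 cell cycle genes 8 (34.8%) and 11 (47.8%). Ccnd2 (cyclin D2) fell by 4.64 in wild-type and by 2.03 in Nat1-null cells. Of 16 components and targets of the Nodal, BMP and TGF-beta pathways 7 were positive (43.8%) and 4 negative (25%). Of 15 streak and mesoderm genes 6 (40%) were positive and 3 (20%) negative, and of 17 neural genes 9 (52.9%) and 3 (17.6%). Lefty1, an inhibitor of Nodal, fell by 2.77 in wild-type cells and differed by -0.29 in Nat1-null cells.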

How the data were processed

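Total RNA of wild-type and Nat1-null mouse embryonic stem cells in LIF or 2i+LIF was hybridised to 12 single-colour Agilent arrays. Scanner intensity values were deposited as Feature Extraction 10.7.3.1 wrote them; per the file headers, that program corrects background and spatial trends. The log2 values that the authors deposited for the series are that processed signal with each array's 75th percentile set to 0, as checked against the scanner files; these were tested. A gene was kept if its probe exceeded background clearly on the 3 arrays of any group and carried no outlier mark covering all its spots on an array (33286 of 55681 probes). The probe with the highest mean stood for its gene. Symbols came from RefSeq accessions (GRCm38.p6), which named 27656 probes.

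limma 3.58.1 (R 4.3.3) fitted 4 group means with moderated variances and tested contrasts two-sided; p-values were adjusted by Benjamini-Hochberg across the genes tested and called at adjusted p below 0.05. The number of arrays limits the precision. On simulated data made from these arrays the interaction test recovered 58 of 100 genes changed by 1 and 88 of 100 changed by 2 on the log2 scale. The simulation gave all groups the same spread for a gene and added no slide effect, so recovery on the arrays themselves may differ. The fit also shared 1 variance per gene among all groups. Replicates differed more in the Nat1-null groups, so the error of the Nat1-null contrast may be understated. Response classes used the calls of both media contrasts and a 2-fold interaction. Alternatives changed the values, background correction, scaling, filter, probe choice, weights, variance model, replicate block, arrays left out and class definition; restriction of the Nat1-null arrays to row 2 of slide 3 was chosen after seeing the data. Slide could not be a block, since each wild-type group filled 1 slide. Named genes were a fixed set, the 5 largest interactions per class and direction among genes bright (well above background) on all 12 arrays, and up to 4 called members per list. Others are marked in the text, or were named as stem cell markers or as members that went against their list. The members and the 28 lists were chosen with earlier results of these data known. Promoters came from RefSeq (GRCm38.p6). Tables used pandas 2.3.3 and numpy 2.4.6 in Python 3.11.15, and figures matplotlib 3.10.9.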

Additional observations from a re-analysis of the deposited data

Results flagged for a closer look

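The effect of 2i differed between the genotypes, by the interaction test itself, in 12149 genes, and that difference is the reason for a closer look at the following. With the largest interaction in each class and direction among genes well above background on all 12 arrays, Grin2c (-4.97) and Acta2 (9.31) moved in opposite directions in the genotypes. Ndufa4l2 (-5.09) and Myl9 (5.8) responded, by the calls, in wild-type cells alone. Gm13889 (-3.6) and Cnn1 (6.36) responded less in Nat1-null cells, and Plagl1 (3.86) and Prkca (-2.87) more. Ly6c1 (3.87) and Gdpd5 (-3.77) responded, by the calls, in Nat1-null cells alone. Each genotype and, in wild-type cells, each medium lay on a slide of its own, so slide and group cannot be told apart for any of them.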

How the results depend on the processing

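Of the 165 named genes, 156 stayed on their side of the threshold in every alternative in which they were tested, and none with a call changed sign. The 9 that crossed it in at least 1 alternative were Eif4g2, Myc, Eif2s2, Dusp6, Egr2, Osmr, Insig1, Eif4ebp2 and Cdx1. The number of called interactions lay between 10923 and 12925 when each array was left out in turn, and between 4772 and 5158 for those of at least 2-fold. Left-out arrays gave 2168 to 2650 lost, 1310 to 1830 reversed, 463 to 570 gained, 267 to 366 reduced and 103 to 181 enhanced genes. With normexp background correction the 2-fold calls fell to 3246, with 1176 lost, 230 gained and 81 enhanced genes. With probes well above background on all 12 arrays alone, fewer genes could be tested (18972), 2997 were called by at least 2-fold, 965 were lost and 293 gained. Without scaling between arrays 10504 interactions were positive and 2786 negative, and 568 responses were reduced. Sorted by size instead of calls, 1769 genes were lost, 1722 reversed and 386 gained. Enhanced genes numbered 203 with array weights and 216 with the Nat1-null arrays of row 2 alone, which leave 1 Nat1-null LIF array, assumed to vary like the other groups; that setting kept 1750 of the 2325 lost and 1221 of the 1561 reversed genes in their class. The cause of these moves was not tested. The replicate block gave 11964 called interactions and 4964 of at least 2-fold; replicate numbers did not pair the arrays, since only 1 of 18 same-numbered pairs had a residual correlation over 0.1 and 2 of 12 arrays correlated best with their own number. The medians of 7 lists near 0 turned positive without scaling. The neural list turned from 1.32 to -0.81 and the streak list from 0.407 to -0.0214 with bright probes alone, and the endoderm list from -0.354 to 0.00477 with row 2 alone. For genes at background in both Nat1-null groups (981 of those tested), signal over background limits the Nat1-null difference.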
